A study of Mus musculus with 12 samples.

Results

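The question here was which liver genes responded to a high-fat diet differently in Cyp1b1 null mice and in wild-type mice. The measure was the genotype by diet interaction: the high-fat minus low-fat difference in null livers, minus the same difference in wild-type livers. All 12 of the series' 12 arrays entered it, in 4 groups of 3, and it was computed for every gene that was measured (14911 genes). A positive value means that null livers stood higher at high fat, relative to low fat, than wild-type livers did, and a negative value means the opposite.

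The mice were male, either wild-type on the C57BL6/J strain or Cyp1b1 null, and were given food with 10% or 60% fat from weaning at 3 weeks until they were killed at 14 weeks. Each genotype on each diet made 1 group. The labels name the tissue as liver hepatocytes and say that each sample pools 3, without saying what was pooled, so the spread between arrays is between pools. Each pool was labelled with Cy3 and set on a 2-colour Agilent array against Cy5-labelled RNA from a common pool of low-fat wild-type livers. No dyes were swapped. Every value below is a log2 ratio of sample over that common pool, or a difference between such ratios. The labels do not say how the null allele was made, on which background it was kept, or how the livers were separated into cells.

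Cyp1b1 encodes a cytochrome P450 that oxidises oestrogens, retinoids, fatty acids and polycyclic hydrocarbons. The liver converts surplus carbohydrate into fat through a set of enzymes that includes fatty acid synthase, malic enzyme and the desaturase Scd1, and it makes cholesterol through the mevalonate pathway. The transcription factors SREBP-1c and SREBP-2 drive these programmes under the control of insulin and sterols, and both programmes are known to respond to diet.

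The arrays were read in 3 scans on 4 slides, and the slides bear on every value that follows. In each genotype both diets had the same number of arrays in each scan, so a shift common to a scan cancels from the interaction. Slides were not balanced in this way. Slide 3 held 1 array of each group, slide 4 held 1 wild-type array of each diet, slide 1 held 1 wild-type array of each diet and 2 null high-fat arrays, and slide 2 held the other 2 null low-fat arrays. Within slides 1 and 2, the null low-fat group and slide 2 cannot be told apart. Slide 2 held no other group, so with slide as a fixed block the null low-fat mean rested on the 1 array of slide 3. Values within slide 3, which rest on 1 array a group and have no test, and values within slides 1 and 2 are therefore given beside many of the results; both sets of arrays are part of the fit. Array 1 of wild-type low fat stood apart from its replicates (r = -0.0848 and 0.0825 over all genes, against 0.36 between arrays 2 and 3). The common pool came from livers of the same genotype and diet, so these r values do not show which array is unusual. For cell cycle genes the median ratio of array 1 lay nearest 0 (-0.0017, -1.17 and -0.80 in arrays 1 to 3). For oxidative phosphorylation subunits it lay farthest from 0 (-0.54, 0.18 and 0.0047). The sample channel was well above background for 18375 to 23439 of 41174 probes per array. All 22 measured hepatocyte markers were above background on all 12 arrays.

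No gene passed the test of the interaction. With limma and Benjamini-Hochberg adjustment over all genes, 0 of 14911 (0%) had an adjusted p under 0.05, and the lowest adjusted p was 1. The unadjusted p was under 0.05 for 134 genes (0.899%), 69 of them higher (0.463%) and 65 lower (0.436%), and under 0.01 for 17. An even spread of p-values would put 5% of genes, or 745.6, under 0.05. The median size of the interaction was 0.16 and its median standard error 0.33. A p that misses the threshold does not show that both genotypes responded alike, and the genes below are described as the leading values of this contrast, not as calls. The adjusted p of the interaction was 1 for every gene named below.

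**Figure D1:**
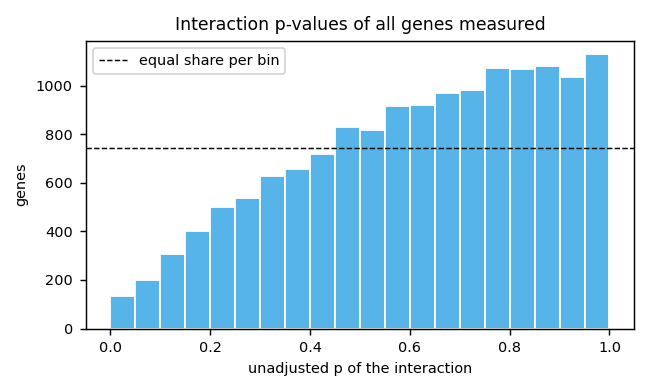
Unadjusted p-values of the interaction for 14911 genes, in 20 bins of 0.05 on the horizontal axis and the number of genes on the vertical axis. The lowest bin holds 134 genes, below the dashed line that marks an equal share of 745.6 genes per bin.

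Each genotype's diet response was tested beside the interaction. In wild-type livers 1 gene passed at an adjusted p under 0.05 (0.00671% of all genes), the tetraspanin gene Cd9, which fell by 1.83 (SE 0.21, adjusted p = 0.0318). In null livers 1 gene passed (0.00671%), Scd1, which fell by 5.15 (SE 0.48, adjusted p = 0.00451). Among the 134 genes with an unadjusted interaction p under 0.05, 103 (76.9%) had diet responses of opposite sign in the 2 genotypes, against 41.0% of all genes. Choosing genes by the interaction favours opposite signs, so this share describes the set. Of the 69 higher genes, 54 stood lower at high fat in wild-type and higher at high fat in null livers (all genes: 22.1%). Of the 65 lower genes, 49 had the reverse pattern (all genes: 18.8%). The interaction within slide 3 had the same sign as over all arrays for 123 of the 134 genes (91.8%), against 61.6% of all genes. The slide 3 arrays are part of the fit. Choosing genes by a small p favours arrays that agree, so the larger share is no separate check.

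**Figure D2:**
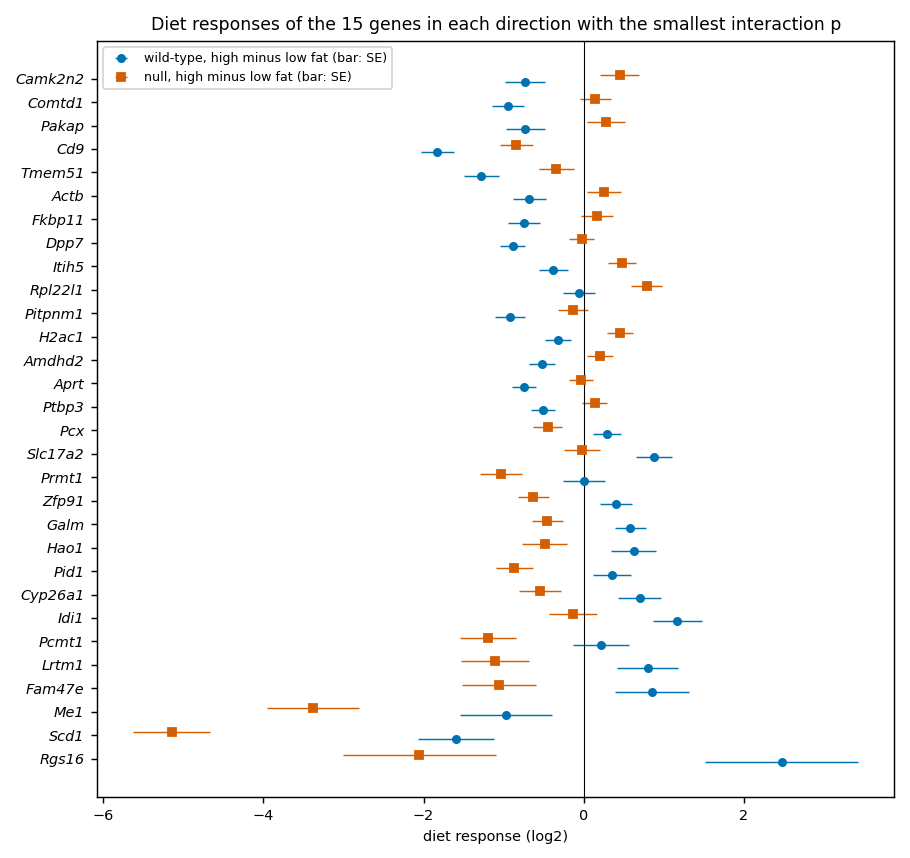
High-fat minus low-fat difference (log2, horizontal axis) in wild-type livers (circles) and null livers (squares) for the 15 genes in each direction with the smallest interaction p, with the standard error as bars. Rgs16 stands at 2.47 in wild-type and -2.05 in null livers, while Scd1 is below 0 in both, at -1.59 and -5.15.

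Cyp1b1 itself had an interaction of -0.47 (SE 0.48), smaller than its error. Its probe stood at 0.15, -0.85 and -1.11 in wild-type low fat, at -0.69, -0.13 and -0.88 in wild-type high fat, at 1.68, 1.58 and 1.59 in null low fat and at 0.65, 1.68 and 1.23 in null high fat. Every null array was above every wild-type array. The labels do not say which part of the gene was removed, so the probe does not check the genotype labels, and each direction below rests on those labels. In wild-type low fat, 1 of its 3 values came from a signal well above background. The sign of its interaction turned under 4 other treatments of the data, among them the sample channel alone (0.17) and the values within slides 1 and 2 (0.20). Nnt, the mitochondrial transhydrogenase gene known to be mutated in C57BL/6J mice, had an interaction of 0.55 (SE 0.25, unadjusted p = 0.0474), with diet responses of 0.01 in wild-type and 0.56 in null livers. Its other probes gave 0.48, 0.06 and -0.17.

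The smallest interaction p belonged to Scd1, which encodes the desaturase that makes oleate and palmitoleate from saturated fatty acids. Its ratios were -0.80, 0.39 and -0.93 in wild-type low fat and -1.51, -2.20 and -2.41 in wild-type high fat. In null livers they were -0.28, 0.74 and 0.31 at low fat and -5.82, -4.06 and -4.79 at high fat. The 3 null high-fat arrays lay below all the others, and the low-fat groups of both genotypes overlapped. The diet groups did not overlap in wild-type livers for 7.24% of all genes and in null livers for 4.83%. The diet response was -1.59 (SE 0.48) in wild-type and -5.15 (SE 0.48) in null livers, which gives an interaction of -3.55 (SE 0.68, unadjusted p = 0.000253). Within slide 3 the interaction was -1.19, and within slides 1 and 2 it was -5.12. With slide as a block it was -2.59, again with an adjusted p over the threshold (0.999).

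Me1 encodes the malic enzyme that supplies NADPH for fatty acid synthesis, and its lowest arrays were again those of null high fat. Wild-type ratios were -0.39, 1.11 and -0.06 at low fat and 0.33, -1.01 and -1.57 at high fat, and the diets overlapped. Null ratios were -0.89, 0.96 and 0.35 at low fat and -2.82, -3.25 and -3.65 at high fat, with no overlap. The interaction was -2.40 (SE 0.81, unadjusted p = 0.0125), and a second Me1 probe gave -2.49. The size depended on the slide: it was -4.61 within slides 1 and 2 and -0.23 within slide 3, where the diet response was -2.13 in wild-type and -2.36 in null livers.

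**Figure D3:**
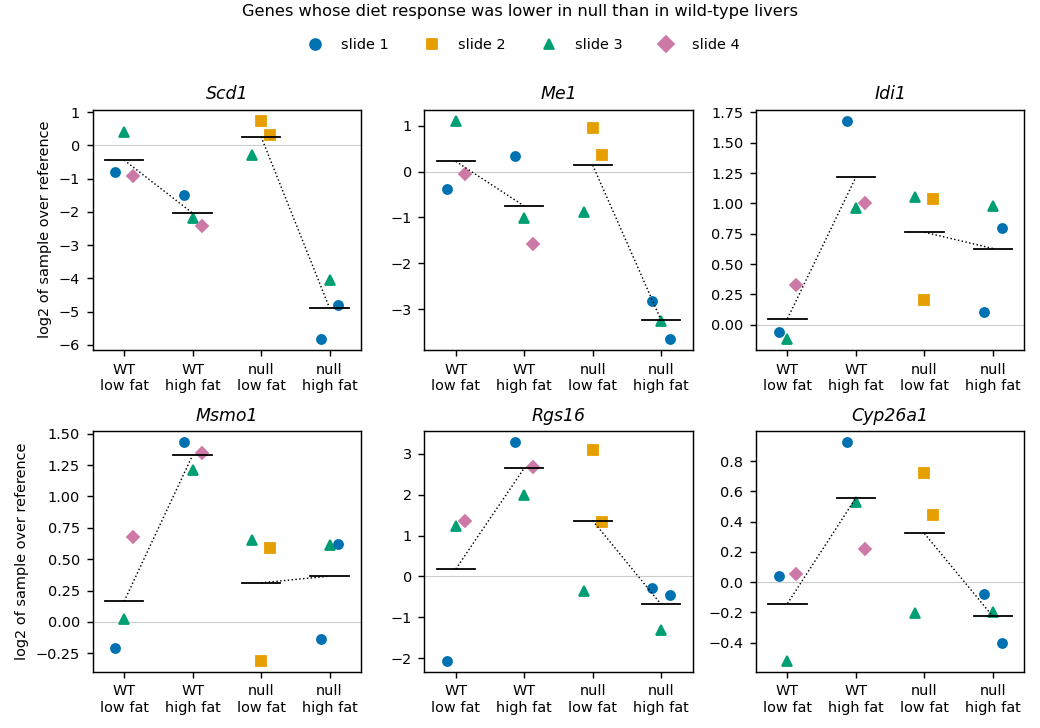
Log2 ratio of sample over the common pool on every array for 6 genes with a negative interaction, with group means as bars and slides by symbol and colour; dotted lines join the low-fat and high-fat means of a genotype. The null high-fat arrays of Scd1 lie between -5.82 and -4.06, and the wild-type high-fat arrays of Msmo1 between 1.21 and 1.43, above all other arrays.

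Other genes of fatty acid and triglyceride synthesis did not share a direction. Of 32 measured members, 21 were below 0 (all genes: 48.0%), with a median interaction of -0.20 against 0.01 for all genes, and 0 passed the adjusted test. Scd1, Me1 and Agpat2, an acyltransferase that makes phosphatidic acid (-0.87, SE 0.39; -0.15 at its second probe), had an unadjusted p under 0.05. The glucose-6-phosphate dehydrogenase gene G6pdx pointed the other way (1.00, SE 0.50). Fasn, the fatty acid synthase gene, stood at -1.46 (SE 0.74), Acaca at -0.51 (SE 0.63), Acly at -0.17 (SE 0.64) and Srebf1, which encodes SREBP-1c, at 0.36 (SE 0.68). The sign of each of these turned in other settings, such as within slide 3 for Fasn (0.31) and Acly (1.51). A second Acaca probe gave 0.10 and a second Fasn probe -0.95. The list's median was -0.92 within slides 1 and 2 but 0.45 within slide 3, 0.099 without wild-type high-fat array 1 and 0.51 after scale normalisation between arrays.

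Cholesterol genes had the lowest median interaction of the 43 gene lists. Of 27 measured members, 22 were below 0 (all genes: 48.0%), the median was -0.57, and 0 passed the adjusted test. The median diet response of the list was 0.16 in wild-type and -0.30 in null livers, with 17 of 27 members above 0 in wild-type (all genes: 51.2%) and 7 in null (all genes: 54.5%). Members with an unadjusted p under 0.05 included Idi1, Msmo1 and Hmgcs1. The upstream 250 bases of these 3 are shown because they share a direction; the promoters are from RefSeq (GRCm38.p6), and capitals mark the CCAAT box in either orientation (CCAAT or ATTGG) and the sterol element motif TCACCCCAC. SREBP-2 is known to act at sterol elements together with the CCAAT-binding factor NF-Y.
Idi1, chr13:8885356-8885605, plus strand: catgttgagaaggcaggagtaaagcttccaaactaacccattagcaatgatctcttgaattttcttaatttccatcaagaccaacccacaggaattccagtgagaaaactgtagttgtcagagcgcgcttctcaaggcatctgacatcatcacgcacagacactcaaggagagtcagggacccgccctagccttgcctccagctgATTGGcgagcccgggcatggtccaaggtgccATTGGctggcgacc
Msmo1, chr8:64733579-64733828, minus strand: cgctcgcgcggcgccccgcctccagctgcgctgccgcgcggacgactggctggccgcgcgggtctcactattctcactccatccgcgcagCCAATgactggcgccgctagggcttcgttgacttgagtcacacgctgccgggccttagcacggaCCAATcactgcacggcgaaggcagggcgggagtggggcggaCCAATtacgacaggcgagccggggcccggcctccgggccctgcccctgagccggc
Hmgcs1, chr13:119690101-119690350, plus strand: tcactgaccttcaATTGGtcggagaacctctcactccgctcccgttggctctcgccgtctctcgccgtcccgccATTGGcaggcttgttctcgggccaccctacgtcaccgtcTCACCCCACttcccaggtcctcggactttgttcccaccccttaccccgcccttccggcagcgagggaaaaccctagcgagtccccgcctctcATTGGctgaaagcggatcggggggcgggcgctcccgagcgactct
A CCAAT box on either strand was found in 18 of the 22 promoters (81.8%) that the table held for 19 of the measured cholesterol genes, and in 33.8% of all 32851 promoters of this length. TCACCCCAC or its complement GTGGGGTGA was found in the Hmgcs1 promoter alone among the 22, and in 0.496% of all; no match overlapped another. These are matches of letters, not measured binding. The promoters were counted whatever the interaction of their genes, so the share says nothing about the diet responses.

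Idi1 encodes the isomerase that interconverts the isoprenoid building blocks of the pathway. Its ratios were -0.06, -0.12 and 0.33 in wild-type low fat and 1.68, 0.96 and 1.01 in wild-type high fat, without overlap. In null livers they were 1.05, 0.20 and 1.03 at low fat and 0.11, 0.98 and 0.79 at high fat, and these overlapped. The interaction was -1.30 (SE 0.43), from a diet response of 1.17 (SE 0.30) in wild-type and -0.13 (SE 0.30) in null livers. It was -1.15 within slide 3 and -1.91 within slides 1 and 2, and the second Idi1 probe gave -0.91.

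Msmo1, a sterol methyl oxidase gene of the later pathway, stood at -0.21, 0.03 and 0.68 in wild-type low fat and at 1.43, 1.21 and 1.35 in wild-type high fat. The null ratios of Msmo1 were 0.65, -0.31 and 0.59 at low fat and -0.14, 0.62 and 0.62 at high fat. As with Idi1, only the wild-type groups lay apart, and the null groups overlapped. The interaction was -1.11 (SE 0.44), -1.22 within slide 3 and -1.54 within slides 1 and 2.

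Hmgcs1 encodes the synthase that makes HMG-CoA for the pathway, and it had an interaction of -1.11 (SE 0.45). Its other probes gave -1.34 and -0.14. Wild-type high-fat array 1, at 1.73, stood above the other two (0.47 and 0.40), and without it the interaction was -0.67. In the deposited log ratios 1 null high-fat array stood at 9.48 for this probe, against -0.82 and -0.63 for its replicates and -1.15 for the same array in the values used here, and the interaction from those ratios was 2.36. Among members with a larger p, the squalene epoxidase gene Sqle stood at -0.58 (SE 0.59) and Insig1, which retains the SREBPs in the endoplasmic reticulum, at 0.04 (SE 0.89) and -0.07 at a second probe. The list's median was -0.93 within slides 1 and 2, with 2 of 27 members above 0, but -0.08 within slide 3, with 13 of 27. Leaving out 1 array at a time gave medians from -0.72 (without wild-type high-fat array 2) to -0.31 (without wild-type high-fat array 1). With slide as a block the median was -0.52, and after median centring, which put the median of all genes at -0.21, it stood at -0.66 relative to that median.

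Genes of glucose production and glycolysis also lay mostly below 0, at 18 of 26 measured members (all genes: 48.0%) with a median of -0.36. Pcx, which encodes the pyruvate carboxylase that opens gluconeogenesis, was the member with the smallest p. Its wild-type ratios were -0.30, -0.15 and -0.29 at low fat and 0.08, 0.16 and -0.11 at high fat; its null ratios were 0.44, -0.19 and 0.06 at low fat and -0.56, -0.20 and -0.28 at high fat. Both pairs of groups lay apart, in opposite directions, as they did for 8 genes in all (0.0537%), and the interaction was -0.74 (SE 0.25). The liver glycogen phosphorylase gene Pygl stood at -0.61 (SE 0.30; -0.32 at a second probe), and Ppp1r3b, a glycogen-targeting phosphatase subunit, at -1.05 (SE 0.52) but 0.25 within slide 3. The glucose transporter gene Slc2a2 had -0.92 (SE 0.55) and G6pc, the last enzyme of glucose release, -0.56 (SE 0.56). A second Slc2a2 probe gave -1.08. The list's median was -0.13 within slide 3 and -0.80 within slides 1 and 2. Galm, which encodes galactose mutarotase, stood at -0.38, -0.28 and -0.44 in wild-type low fat, 0.24, 0.55 and -0.15 in wild-type high fat, 0.29, 0.42 and 0.46 in null low fat and -0.20, 0.24 and -0.25 in null high fat. Its interaction was -1.04 (SE 0.27), -0.89 within slide 3 and -1.28 within slides 1 and 2.

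In all, 2 retinoid enzyme genes had an unadjusted p under 0.05 (all genes: 0.899%) among 31 measured genes of retinoid storage and signalling. Of the 31, 19 were below 0 (all genes: 48.0%), and the median of -0.10 was -0.022 without wild-type low-fat array 1. Cyp26a1, the P450 that clears retinoic acid, stood at 0.04, -0.52 and 0.05 in wild-type low fat and 0.92, 0.53 and 0.22 in wild-type high fat. In null livers it stood at -0.20, 0.72 and 0.45 at low fat and -0.08, -0.20 and -0.40 at high fat. The wild-type groups lay apart and the null groups overlapped; the interaction was -1.25 (SE 0.38), -1.05 within slide 3 and -1.70 within slides 1 and 2. Rdh11, a retinal reductase gene, had -1.20 (SE 0.49), with -0.45 within slide 3 and -2.55 within slides 1 and 2. A second Rdh11 probe gave -1.22. Lrat, which esterifies retinol for storage, had -0.74 (SE 0.39), and -0.18 at a second probe.

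The most negative interaction among genes above background on all 12 arrays and with an unadjusted p under 0.05 was that of Rgs16, a regulator of G protein signalling. Its ratios were -2.07, 1.24 and 1.37 in wild-type low fat, 3.28, 2.00 and 2.68 in wild-type high fat, -0.35, 3.1 and 1.34 in null low fat and -0.29, -1.32 and -0.45 in null high fat. The wild-type groups lay apart, the null groups overlapped, and the low-fat arrays within each genotype differed among themselves by over 3 log2 units. The interaction was -4.52 (SE 1.35), -3.40 without wild-type low-fat array 1, -1.73 within slide 3 and -7.94 within slides 1 and 2. Of the other lower genes, Pid1 (-1.22), Zfp91 (-1.03), Lrtm1 (-1.90, with 1 null high-fat value missing and left out), Fam47e (-1.91), Slc17a2, a sodium-phosphate transporter (-0.90), and Hao1, the glycolate oxidase (-1.11), stood higher at low fat in null than in wild-type livers and closer together at high fat or reversed. The other Zfp91 probes gave -0.32 and -0.37. Prmt1, the main asymmetric arginine methyltransferase, had -1.03 (SE 0.37), from 0.00 in wild-type and -1.03 in null livers. Pcmt1, which repairs damaged aspartyl residues, had -1.41 (SE 0.49), and its null high-fat ratios of -1.49, -0.31 and -1.87 differed by slide, so that slide 3 alone gave -0.14; a second Pcmt1 probe gave -0.58.

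In the positive direction the leading genes mostly stood lower at high fat in wild-type livers, with smaller or opposite responses in null livers. Comtd1, a methyltransferase gene, stood at 0.60, 0.16 and 0.53 in wild-type low fat and -0.26, -0.70 and -0.59 in wild-type high fat. Its null ratios were -0.83, -0.41 and -0.76 at low fat and -0.26, -0.72 and -0.59 at high fat. All arrays but those of wild-type low fat thus lay between -0.83 and -0.26. The interaction was 1.09 (SE 0.28, unadjusted p = 0.00227), 0.97 within slide 3, 1.03 within slides 1 and 2 and 1.01 without wild-type low-fat array 1.

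Dpp7, a dipeptidyl peptidase of vesicles and lysosomes, stood at 0.42, 0.22 and 0.30 in wild-type low fat and -0.59, -0.59 and -0.55 in wild-type high fat. Its null ratios, -0.23, 0.22 and -0.31 at low fat and -0.02, -0.20 and -0.17 at high fat, overlapped. The interaction of Dpp7 was 0.86 (SE 0.22), with 0.84 within slide 3 and 0.96 within slides 1 and 2, and a second Dpp7 probe gave 0.37. Camk2n2, an inhibitor of CaM kinase II, stood at 0.47, -0.18 and -0.38 in wild-type low fat, -0.84, -0.82 and -0.63 in wild-type high fat, -1.54, -0.93 and -1.36 in null low fat and -0.49, -0.96 and -1.04 in null high fat. Its interaction was 1.18 (SE 0.35), with 1.23 within slide 3 and 1.69 within slides 1 and 2.

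**Figure D4:**
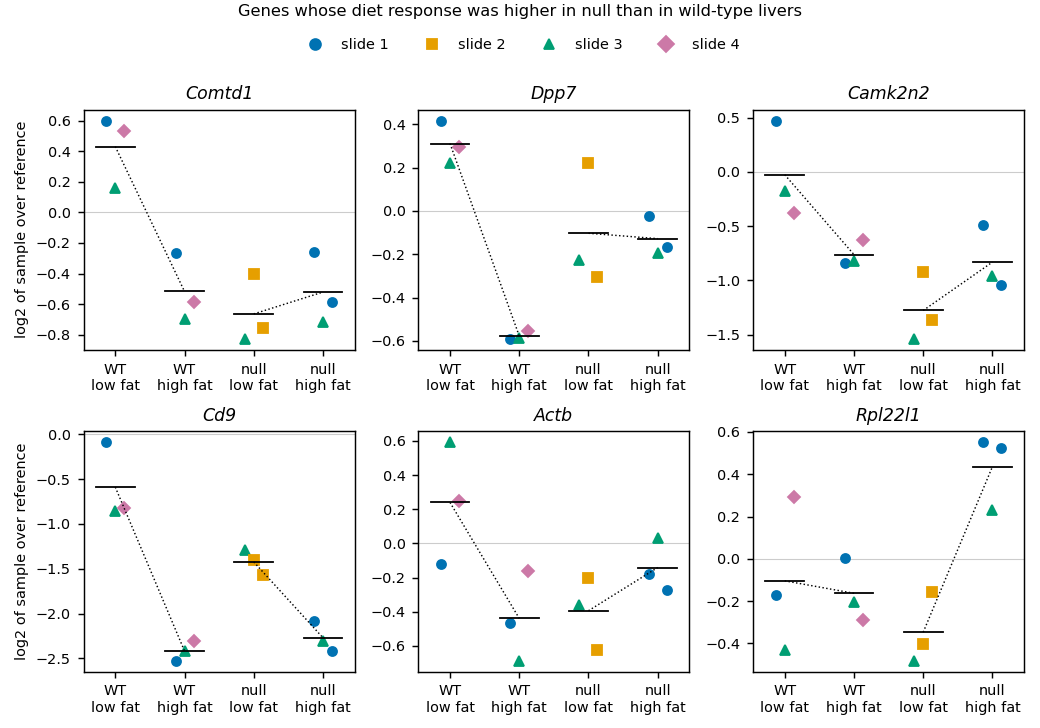
Log2 ratio of sample over the common pool on every array for 6 genes with a positive interaction, with group means as bars, slides by symbol and colour, and dotted lines joining the diets of a genotype. For Comtd1 and Dpp7 the diets lie apart in wild-type livers, with low fat above, and overlap in null livers.

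Cd9, a membrane tetraspanin listed here with macrophage genes, stood lower at high fat in both genotypes. Its ratios were -0.09, -0.85 and -0.82 in wild-type low fat and -2.53, -2.42 and -2.31 in wild-type high fat, then -1.29, -1.41 and -1.57 in null low fat and -2.09, -2.31 and -2.42 in null high fat. The diets lay apart in each genotype, the high-fat groups of both genotypes overlapped, and the low-fat groups did not. The response was -1.83 in wild-type and -0.85 (SE 0.21) in null livers, an interaction of 0.98 (SE 0.29), with 0.56 within slide 3 and 1.68 within slides 1 and 2. Tmem51 and Pitpnm1, a phosphatidylinositol transfer protein gene, had the same order of groups, with interactions of 0.94 (SE 0.31) and 0.78 (SE 0.26).

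Actb, the cytoplasmic beta-actin gene often used as a reference, stood at -0.12, 0.59 and 0.25 in wild-type low fat, -0.47, -0.69 and -0.16 in wild-type high fat, -0.36, -0.20 and -0.62 in null low fat and -0.18, 0.03 and -0.28 in null high fat. Its interaction was 0.93 (SE 0.30), with 1.67 within slide 3 and 0.53 within slides 1 and 2, and a second Actb probe gave 0.35. Rpl22l1, a paralogue of a ribosomal protein gene, stood at -0.48, -0.40 and -0.15 in null low fat and 0.55, 0.23 and 0.52 in null high fat, without overlap, while the wild-type diets overlapped, and its interaction was 0.84 (SE 0.28), 0.48 within slide 3 and 0.64 within slides 1 and 2. H2ac1, a histone H2A gene, had an interaction of 0.77 (SE 0.23), 0.58 within slide 3 and 1.10 within slides 1 and 2. It stood at 0.66, 0.26 and 0.18 at low fat and 0.10, -0.06 and 0.09 at high fat in wild-type livers, and at -0.22, -0.25 and -0.40 and then 0.35, 0.05 and 0.08 in null livers. Its diet groups lay apart in both genotypes, in opposite directions.

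The remaining higher genes had interactions between 0.64 and 1.01. They were Itih5, an inter-alpha-trypsin inhibitor heavy chain (0.85), Aprt, which salvages adenine (0.71), Fkbp11, a folding enzyme of the endoplasmic reticulum (0.91), Amdhd2, a deacetylase of amino sugars (0.73), the RNA-binding protein gene Ptbp3 (0.64) and Pakap (1.01). Other probes gave lower values for 3 of these genes: 0.11 for Fkbp11, 0.34 for Amdhd2, and 0.06 and -0.05 for Pakap.

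The largest positive values were smaller without wild-type low-fat array 1. Nupr1, a stress-induced nuclear protein gene, stood at 0.79, -2.69 and -1.41 in wild-type low fat, where array 1 was far above the rest, at -3.26, -2.86 and -2.97 in wild-type high fat, -3.09, -3.31 and -3.60 in null low fat and -2.36, -3.54 and -3.40 in null high fat. Its interaction of 2.16 (SE 0.94) was 1.21 without wild-type low-fat array 1 and -0.28 within slide 3. For Gpat3, a glycerol-phosphate acyltransferase, the interaction of 1.94 (SE 0.82) was 1.25 without that array and -0.22 within slide 3. A second Gpat3 probe gave 2.01 over all arrays. Gpat3 was not in the list of fatty acid and triglyceride synthesis genes above. Uap1l1 went from 1.92 to 1.24 and the small GTPase gene Rhoc from 1.48 to 0.92 when the array was left out. Within slide 3, Uap1l1 stood at 0.55 and Rhoc at 0.53. Without the array Hba-a2, an alpha-globin gene, went from 1.60 to 1.10, and within slide 3 it stood at -0.001. Its probe may also read the near-identical Hba-a1.

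Medians of cell type markers also changed when single arrays were left out. In whole samples, fewer cells of a type and less RNA per cell cannot be told apart. Of 28 listed Kupffer cell and macrophage markers 27 were measured, 24 of them above 0 (all genes: 52.0%), with a median interaction of 0.56. Their median ratio per array was 0.15, -1.44 and -0.33 in wild-type low fat, -1.55, -0.82 and -0.42 in wild-type high fat, -0.91, -0.83 and -0.92 in null low fat and -0.35, -0.92 and -0.91 in null high fat. The spread within each wild-type group was wider than the differences between groups. Among defining markers, Clec4f stood at 0.25 (SE 0.39), Marco at 1.60 (SE 1.10) and Adgre1, which encodes F4/80, at 0.31 (SE 1.05). The list's median was 2.04 within slides 1 and 2, -0.51 within slide 3, 0.22 when array 1 of wild-type low fat was left out and 1.10 when its array 2 was. Adgre1 and Marco stood below 0 within slide 3, at -2.38 and -1.19. Their part in the interaction of Cd9, Actb and the other higher genes was not tested.

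Genes of the cell cycle and DNA replication had 30 of 32 measured members above 0 (all genes: 52.0%) and a median of 0.44. Mcm6, a subunit of the replicative helicase, stood at 1.19 (SE 0.66) and Mki67 at 1.01 (SE 1.07, and 0.12 at a second probe). Leaving out array 1 of wild-type low fat put the median at 0.09, and leaving out its array 2 put it at 0.68. It was -0.81 within slide 3, where Mcm6 stood at -0.83 and Mki67 at -2.06. All 14 measured bile duct markers were above 0 (all genes: 52.0%), with a median of 0.27. Spp1, which encodes osteopontin, led them at 1.17. The bile duct median was 0.18 within slide 3. It was 0.14 with array 1 of wild-type low fat left out and 0.48 with its array 3 left out. Of 8 measured erythroid markers, 5 were above 0 and 3 below (all genes: 52.0% above 0). An unadjusted p under 0.05 was found for 3 of the 8 (all genes: 0.899%), among them the anion exchanger gene Slc4a1 (0.79, SE 0.29) and Hba-a2. The erythroid median of 0.65 was 0.16 without wild-type high-fat array 1, -0.06 after scale normalisation and -0.12 within slide 3.

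**Figure D5:**
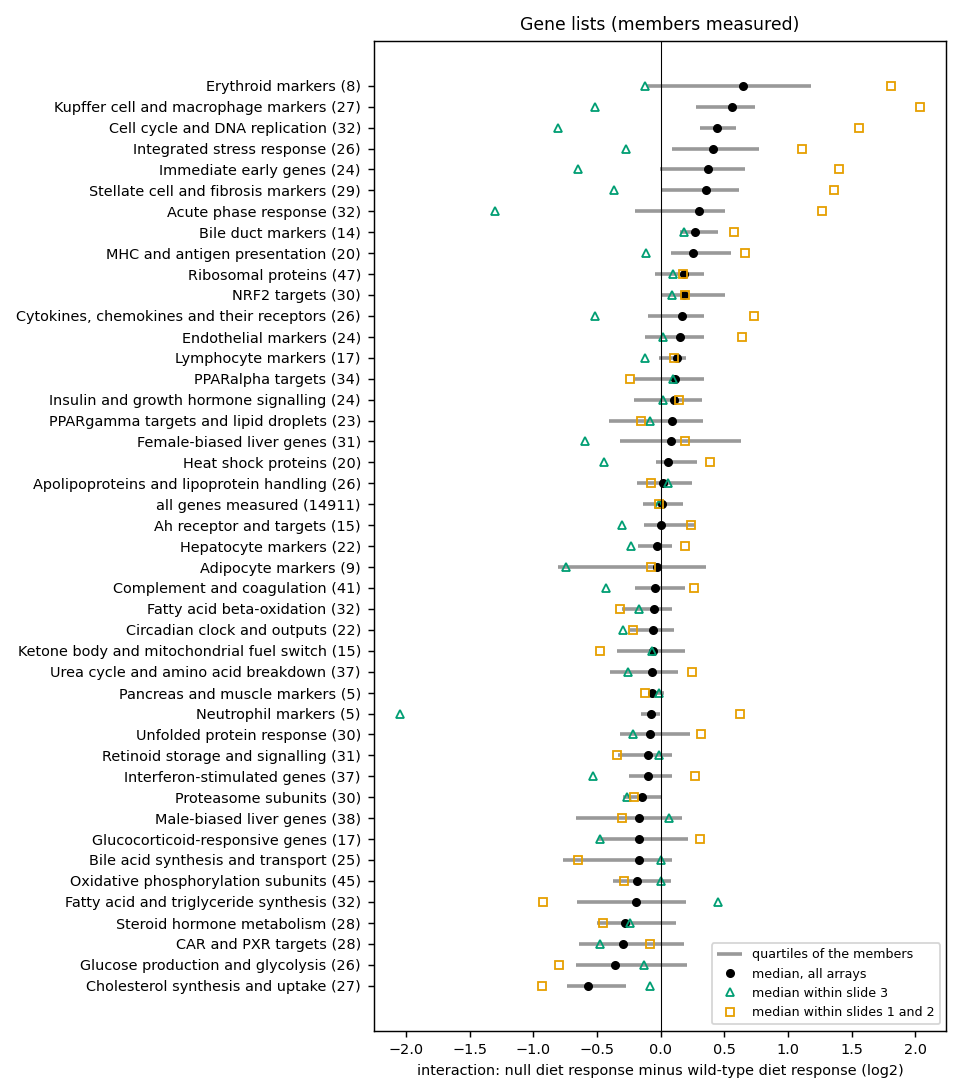
Median interaction (log2) of each gene list over all arrays (black points) with the quartiles of its members (ends of grey bars), and the medians within slide 3 (triangles) and within slides 1 and 2 (squares); the number of members measured stands in brackets. The cholesterol list is lowest at -0.57, and lists such as Kupffer cell markers lie at 2.04 within slides 1 and 2 but at -0.51 within slide 3.

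The integrated stress response had 20 of 26 members above 0 and a median of 0.41, which went to 0.016 when array 1 of wild-type low fat was left out and to 0.68 when its array 2 was. Acute phase genes had a median of 0.30 over all arrays, 1.27 within slides 1 and 2, -1.30 within slide 3, -0.79 with slide as a block and -0.20 without wild-type low-fat array 1. Targets of PPARalpha, the fatty acid sensor that induces fat oxidation, had a median of 0.11 with 22 of 34 members above 0, but -0.33 after scale normalisation and -0.10 from the sample channel alone. Fatty acid beta-oxidation genes had -0.05, with 13 of 32 above 0. CAR and PXR targets, the drug-metabolising programme, had -0.29 with 13 of 28 above 0, which was -0.0013 without wild-type high-fat array 1, and Cyp2c54 led them at -1.50, with diet responses of 2.50 in wild-type and 1.00 in null livers. Ah receptor targets, the programme that induces Cyp1b1, had a median of 0.00 with 8 of 15 above 0. Of all genes, 52.0% were above 0, the share to set beside the counts of these lists. None of the 43 lists held a member that passed the adjusted test, and 29 lists held none at an unadjusted p under 0.05.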

How the data were processed

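RNA from 12 liver samples was measured on 2-colour Agilent arrays. Per the file headers, Agilent's Feature Extraction (spot analysis 9.1.3.1) made the deposited intensity values, which are each spot's mean brightness and local background per colour. Per the file headers, it also made the deposited log10 ratios, with Cy5 above Cy3, from its processed signals. The authors' deposited table of log2 ratios (limma, per the submitters' processing notes) equals differences of group means of those ratios within 5e-10 on 43379 spots, which settles its direction; it was used for this check alone.

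The spot intensities were analysed again in R 4.3.3 with limma 3.58.1: normexp background correction with an offset of 50, loess within arrays, and log2 of Cy3 over Cy5, with no scaling between arrays. Control spots and 120 non-uniform spots were left out. Probes counted as measured (21490) were those whose Cy3 signal was well above background on every array of 1 group or more. The brightest such probe stood for each gene (14911 genes, 4900 with several). Names come from accessions (24844 probes), current symbols (6045), synonyms (1810) or the files (8475), through a RefSeq table of GRCm38.p6. Limma fitted 1 mean per group over all 12 arrays (8 residual and 3.16 prior degrees of freedom). Where nothing says the pools came from separate mice, the p-values measure the spread between these pools. The number of arrays limits the precision. The model fit was tested on simulated data, with noise drawn separately for each array and no slide or scan term. In the real data, arrays of different groups on the same slide deviated together from their group means (median r = 0.46). The simulation therefore does not cover the slides.

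The named genes were Cyp1b1 and Nnt, up to 15 in each direction with the smallest interaction p, up to 5 in each direction with the largest interaction among genes under 0.05 and above background on all arrays, and up to 4 members per list by p. Further list members (Fasn, Acaca, Acly, Srebf1, Sqle, Insig1, G6pc, Clec4f, Marco, Adgre1 and Mki67) were named after their values were seen, as were the genes whose diet groups lay apart in opposite directions. Some list members are not reported here. The comparison, the lists and the rule for genes were chosen with earlier results of these data known. Alternatives were other background, normalisation, filter, probe, block and weight settings, each array left out in turn, and values within scans; the slide as a random block, the slide block with processed signals, and leaving out scan 3 were chosen after seeing the data.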

Additional observations from a re-analysis of the deposited data

Results flagged for a closer look

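For 8 genes (0.0537% of 14911) every high-fat array lay on 1 side of every low-fat array in wild-type livers and on the opposite side in null livers. The difference between the 2 responses is the interaction, which was tested: limma's adjusted p was 1 for each of the 8. Null minus wild-type, the diet responses differed by -1.04 for Galm, 0.769 for the histone gene H2ac1, -0.74 for the pyruvate carboxylase gene Pcx, -0.811 for Stbd1, a glycogen-binding protein gene, 0.548 for the heparan sulfotransferase gene Hs3st3b1 and 0.499 for Rpf2, a ribosome assembly factor gene. Stbd1 stood at -0.14, -0.98 and -0.30 in wild-type low fat, 0.10, -0.01 and 0.32 in wild-type high fat, -0.24, -0.36 and -0.46 in null low fat and -0.51, -0.69 and -0.47 in null high fat. Its 2 other probes gave interactions of -0.12 and -0.22. The other two are named in the files only as LOC667597 (-1.18) and BB340137 (-0.329).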

How the results depend on the processing

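In every setting with a test and 2 or more arrays in each group, 0 genes passed at an adjusted p under 0.05. The lowest adjusted p there was 0.259, with slide as a fixed block. In that block the null low-fat mean rested on the 1 array of slide 3, because slide 2 held no other group. Scan 1 is slides 1 and 2, and scan 2 is slide 3. Within scan 1 each wild-type group had 1 array, and 2 residual degrees of freedom were left. Null low fat and slide 2 could not be told apart there. The number at an unadjusted p under 0.05, 134 over all arrays, moved to 339 with Agilent's processed signals, 13 with median centring, 47 with scale normalisation, 208 from the sample channel alone, 348 of 27975 genes with no filter on dim probes, 357 with scan as a fixed block, 340 with slide as a fixed block, 297 with scan as a random block, 425 with array weights, 1669 within scan 1 and 361 with the slide block on processed signals. The split of higher against lower, 69 to 65, became 126 to 213 with processed signals, 1 to 12 with median centring and 83 to 125 from the sample channel. Leaving out 1 array gave 70 (without null low-fat array 3) to 444 (without wild-type low-fat array 2). It was also moved by over 1.5 times by the high-fat arrays 1 of wild-type (88) and of null livers (83), by null high-fat array 2 (276), by null low-fat array 2 (270) and by wild-type low-fat array 3 (238). Of the 134 genes, 123 were under 0.05 with scan as a fixed block and 50 with slide as a fixed block. All 134 kept their sign with the slide block, where the null low-fat mean rested on 1 array, that of slide 3. They also kept it with the scan block, but scans were balanced over diets in each genotype. That block cannot change the interaction where no value is missing. The causes of the moved counts were not tested.

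With the replicate number as a block the count was 130, 97 of them among the 134. Same-numbered arrays did not deviate together in all groups: the median r was 0.335 between wild-type diets, which share slides, and -0.303 between null diets, so the numbers were not taken to pair the samples.

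Of 87 genes, among them all that are given a value here, 24 changed sign in some setting. Cyp1b1 stood at 0.211 with processed signals, 0.99 after scale normalisation, 0.17 from the sample channel and 0.197 within scan 1; Hmgcs1 at 2.36 with processed signals and 0.835 with the slide block on them; and G6pc at 1.59 after scale normalisation. Within scan 1, Ahr stood at 0.019. Within scan 2, where there was 1 array a group, Nupr1 stood at -0.282, Gpat3 at -0.224, Hba-a2 at -0.001, Ppp1r3b at 0.25, Nr0b2 at 0.621, Gsta2 at -0.75, Dusp1 at 0.021, Klf4 at -0.594, Cox4i1 at 0.309, Orm1 at -0.191, Mcm6 at -0.831, Fasn at 0.31, Acaca at 0.376, Acly at 1.51, Marco at -1.19, Adgre1 at -2.38 and Mki67 at -2.06. With slide as a fixed block, Acaca stood at 0.163, Acly at 0.52, Adgre1 at -0.579 and Mki67 at -0.066; with the slide block on processed signals, Acaca stood at 0.157, Acly at 0.564 and Adgre1 at -0.316. Acaca stood at 0.674 and Acly at 0.887 after scale normalisation, and Acly at 0.065 from the sample channel and 0.033 without scan 3. Srebf1 stood at 0.00 after median centring and -0.101 within scan 1, and Clec4f at -0.045 after median centring. Insig1 stood at -0.099 with processed signals, -0.27 after median centring, -0.205 from the sample channel, -0.014 as a mean over probes and -0.701 within scan 1. Leaving out 1 array also turned the sign of 6 of these genes, whose values ran from -0.564 to 0.303 for Acly, from -0.033 to 0.84 for Srebf1, from -0.516 to 0.567 for Insig1, from -0.007 to 0.476 for Clec4f, from -0.369 to 1.17 for Adgre1 and from -0.009 to 1.78 for Mki67. With 3 pools a group and slides unbalanced over null arrays, a difference that follows slide 2 and one that follows null low-fat livers cannot be told apart outside slide 3.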
